A study of Mus musculus with 18 samples.

Results

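The Serpin genes, which code for serine protease inhibitors and their non-inhibitory relatives, were followed through RNA-seq libraries of mouse mammary gland cells. Members were all genes whose mouse symbol starts with Serpin, which gave 68 of the 52636 genes in the count tables. Of these, 34 had 10 or more counts in at least 3 of the 18 libraries and are counted here, and all 34 also entered the tests. The other 34 lay below that limit, 15 of them with no count in any library. Serpinb13 was just inside the limit, with 10 or more counts in 3 libraries, and 7 genes were just outside it, with 2 such libraries each.

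The libraries formed 6 groups of 3, which the series text describes as biological replicates. Cells came from D542G, Y541S and WT animals, the labels naming mutations of the oestrogen receptor alpha (gene Esr1), and were sorted by flow cytometry into a gate abbreviated N, whose cell type the labels name without defining it, or a mature luminal gate (ML). The groups were D542G N, Y541S N, WT N, D542G ML, Y541S ML and WT ML. All animals were 6 months old, carried oestradiol and progesterone pellets and received giredestrant, an oestrogen receptor antagonist, by mouth at 30 mg/kg daily for 4 days. No group without giredestrant or without hormone was analysed here, and point mutations cannot be checked from gene counts. The labels give neither the zygosity of the mutations nor the surface markers of the gates, and they give the source of every library, N included, as mature luminal cells.

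A serpin carries an exposed loop that a protease cuts as if it were a substrate; the inhibitor then snaps into a new shape and traps the enzyme. Clades are named by letter: clade A holds the secreted relatives of antitrypsin and antichymotrypsin, clade B the mostly intracellular inhibitors, and clades C to I hold single proteins or small sets with tasks in clotting, plasminogen activation, complement, collagen folding and the nervous system. In the mammary gland the best known member is Serpinb5 (maspin), a clade B protein that inhibits no protease and is made by myoepithelial cells. Several members, Serpinf1 and Serpinh1 among them, also work without inhibiting a protease.

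Library totals ran from 34797778 to 49507144 counts. Marker genes for the gates separated most libraries: the summed level of 10 basal and myoepithelial genes (CPM, reads scaled to a common library total) was 6578 to 40240 in N and 199.9 to 9597 in ML, and that of 8 luminal genes was 1328 to 16660 CPM in N and 14550 to 30080 CPM in ML. Over the 3 genotypes 10 of 10 basal genes were higher and 8 of 8 luminal genes lower in N, beside 13.8% higher and 13.6% lower among all genes. The labelled source, mature luminal cells, thus went against the marker levels of most N libraries. A few libraries stood apart. WT N 3 had the lowest basal and the highest luminal sum of the N libraries. Y541S ML 3, WT ML 1 and WT ML 2 had basal sums of 3246, 9597 and 6593 CPM, against 199.9 to 580.5 CPM in the other ML libraries. These libraries also had the highest hair follicle sums, given below. The basal list holds keratins as well as contractile genes, and whether its sums came from mammary basal cells or skin was not tested. The sum of 13 genes of differentiating epidermis was 11870 CPM in Y541S N 3, 4006 CPM in WT N 1, 10070 CPM in WT N 2, 744 CPM in D542G N 2 and 499 CPM in WT N 3, and no more than 37.0 CPM in any remaining N library. In ML it was 1729 CPM in Y541S ML 3, 435 CPM in WT ML 1, 200.4 CPM in WT ML 2 and 104 CPM in D542G ML 2, and 9.79 to 20.9 CPM in the other ML libraries. Its member Lgals7 was at 0 in every library, and 1 of its 10 tested members was called higher in N. The sum of 10 hair follicle genes, Tchh at 0, was 3987 CPM in Y541S ML 3, 6200.0 CPM in WT ML 1, 1284 CPM in WT ML 2 and no more than 151 CPM elsewhere; 7 of 9 tested were called lower in N, each call lost in some fits without 1 library. The sum of 6 milk genes was 33750.0 CPM in Y541S N 2 and 15420.0 CPM in Y541S ML 2, and no more than 309 CPM elsewhere.

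Serpin genes lay mainly on the N side. Over the 3 genotypes 19 of the 34 members were called higher in N than in ML and 0 were called lower (edgeR quasi-likelihood test, Benjamini-Hochberg adjusted p under 0.05). At an unadjusted p under 0.05, 20 were higher and 1 was lower. Of all 18298 genes tested, 13.8% were called higher and 13.6% lower. The median log2 fold change was 2.30 for the 34 members and -0.03 for all genes. Fewer cells of a type and less RNA per cell cannot be told apart in such bulk libraries. DESeq2 called 20 members higher (17.3% of all genes) and 1, Serpine2, lower. Limma with quality weights called 17 members higher (20.1% of all genes). The N and ML ranges overlapped for each of the 34 members. The 34 together reached 855 to 6796 CPM in N, against 503 to 1048 CPM in ML.

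The 3 N libraries with the highest epidermal sums, Y541S N 3, WT N 1 and WT N 2, weighed on this count. They also had the highest basal sums of the N libraries (38650, 32040 and 40240 CPM). Their luminal sums were the lowest (1610, 1328 and 1659 CPM). The part of skin cells in these basal sums was not tested. Without Y541S N 3, WT N 1 and WT N 2, 9 members were called higher, all among the 19, and 7.97% of all genes were; WT N then consisted of WT N 3 alone, which was assumed to vary like the other groups. Among the 9 were Serpinb5, Serpinb6a, Serpinb6b, Serpinb9, Serpinf1, Serping1 and Serpinh1, while the 5 called members of clade A and the chromosome 1 genes Serpinb2, Serpinb7, Serpinb8 and Serpinb10 were not among them. Without WT N 3, WT ML 1, WT ML 2 and Y541S ML 3, the libraries whose basal or luminal sums lay nearest the other gate, 18 were called higher, 17 of them among the 19, beside 2749 of all 18298 genes. In fits that left out each library in turn, 15 of the 19 were called each time. The other 4 were Serpinb2, Serpinb6c, Serpinb7 and Serpinb9.

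**Figure D1:**
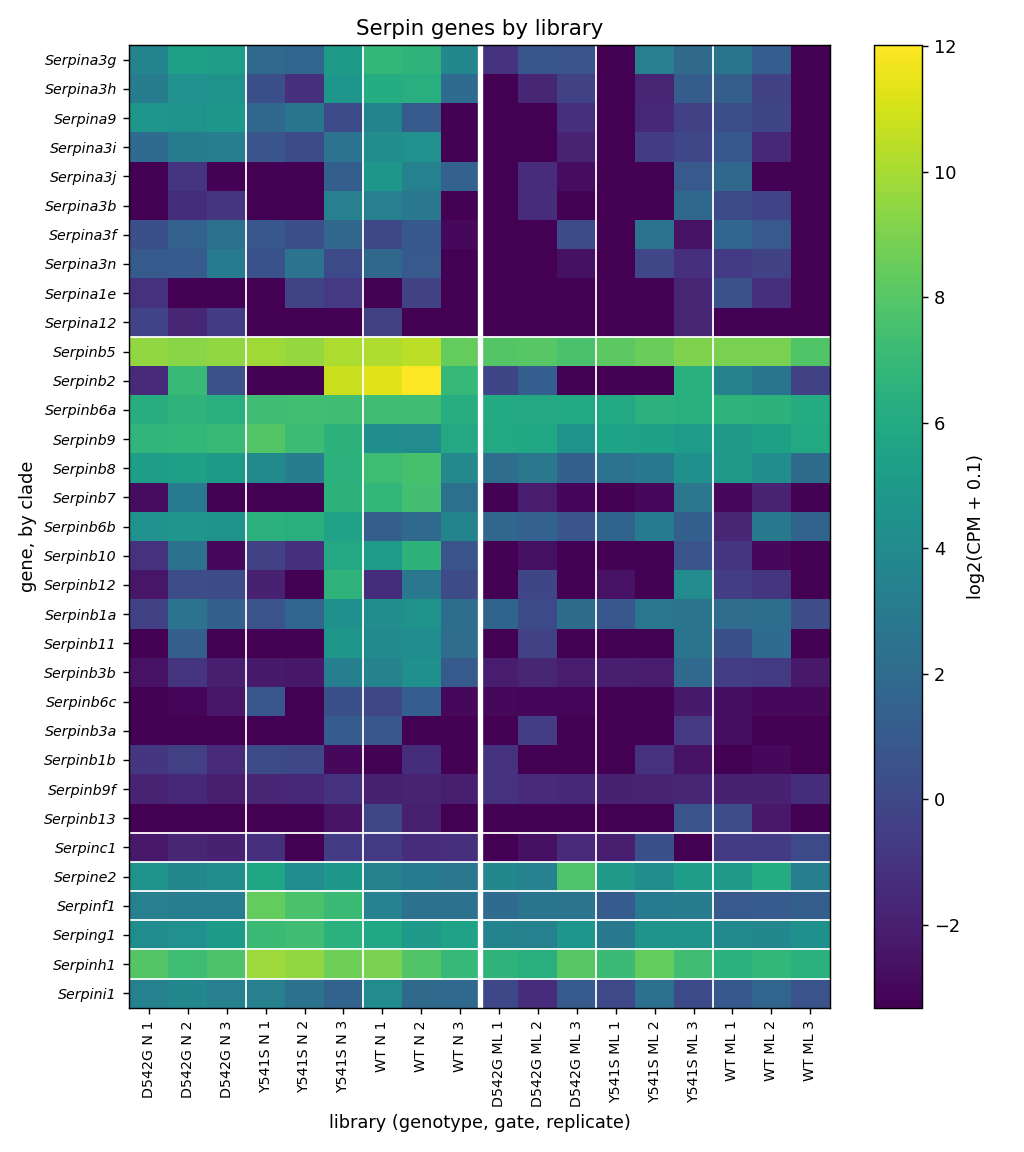
Level of 33 of the Serpin genes (rows, by clade) in each of the 18 libraries (columns, N left of the thick line and ML right of it), as log2 of CPM + 0.1. Serpinb5 is bright in all libraries, Serpinb2 is bright in Y541S N 3, WT N 1 and WT N 2, and Serpinf1 is bright in the 3 Y541S N libraries.

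**Figure D2:**
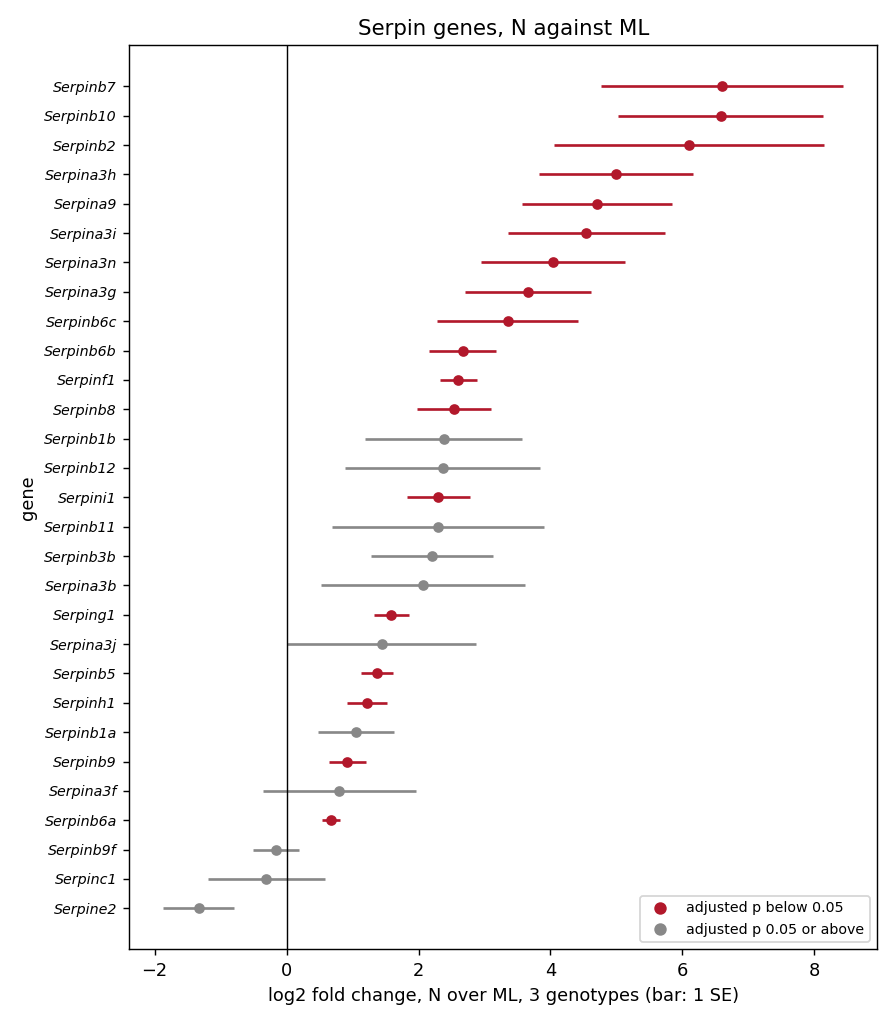
Log2 fold change of N over ML over the 3 genotypes for 29 of the members with no group at 0 in all its libraries, with bars of 1 standard error; red points passed the test. The 18 red points all lie above 0, and Serpine2 has the lowest value at -1.33.

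The members sat in 3 gene clusters and at single sites (coordinates from GENCODE M21 on GRCm38). Clade B held 12 genes on chromosome 1 between 106861173 and 107610484, 10 of them kept, and 5 of the 10 were called higher. A further 16 clade B genes lay on chromosome 13 between 32842092 and 34002794, with 7 kept and 4 called higher. Clade A held 28 genes on chromosome 12 between 103614786 and 104414329, with 10 kept and 5 called higher. Per kilobase of exon, the highest median levels over the 18 libraries were those of Serpinb5 (186 CPM per kb), Serpinh1 (77.1), Serpinb9 (16.8) and Serpinb6a (15.9). Serpinb2 had a mean of 409 CPM per kb in N and 5.11 in ML, and a median over all libraries of 0.774.

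The promoters of the 5 called genes of the chromosome 1 cluster are shown because these neighbours share a short motif. All 5 also had their highest N levels in Y541S N 3, WT N 1 and WT N 2. Serpinb5 and Serpinb8 were detected in every library. The sequences are RefSeq's for GRCm38.p6, plus strand, 250 bases before the start and 50 from it on. Matches to a loose AP-1 pattern (TGANTCA, either strand), called AP-1 sites here, are in capitals. The search allowed any middle base. The marked sites read TGAGTCA in Serpinb7 and Serpinb8 and TGAATCA in Serpinb5, Serpinb2 and Serpinb10. AP-1 is the dimer of Fos and Jun proteins. Its standard site has G or C in the middle, so the TGAATCA sites are looser matches. The windows are chr1:106860925-106861224 for Serpinb5, chr1:107422439-107422738 for Serpinb7, chr1:107511173-107511472 for Serpinb2, chr1:107528753-107529052 for Serpinb10 and chr1:107589756-107590055 for Serpinb8.
Serpinb5: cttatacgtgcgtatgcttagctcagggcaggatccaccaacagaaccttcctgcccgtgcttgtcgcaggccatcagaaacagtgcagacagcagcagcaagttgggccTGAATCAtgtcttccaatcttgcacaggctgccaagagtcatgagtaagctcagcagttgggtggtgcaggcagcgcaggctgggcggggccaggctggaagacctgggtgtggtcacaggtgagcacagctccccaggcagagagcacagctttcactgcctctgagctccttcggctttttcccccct
Serpinb7: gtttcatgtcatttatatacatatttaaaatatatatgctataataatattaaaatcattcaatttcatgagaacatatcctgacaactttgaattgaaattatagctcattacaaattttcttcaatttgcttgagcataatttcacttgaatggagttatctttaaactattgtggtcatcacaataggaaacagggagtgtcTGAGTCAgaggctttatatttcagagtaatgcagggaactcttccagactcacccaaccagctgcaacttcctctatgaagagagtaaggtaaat
Serpinb2: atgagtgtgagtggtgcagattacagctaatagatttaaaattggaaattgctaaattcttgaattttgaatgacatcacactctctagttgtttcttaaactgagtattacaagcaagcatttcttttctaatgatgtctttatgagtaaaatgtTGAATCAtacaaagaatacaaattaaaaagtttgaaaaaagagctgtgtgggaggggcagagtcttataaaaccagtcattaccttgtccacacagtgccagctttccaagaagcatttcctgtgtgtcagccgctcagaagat
Serpinb10: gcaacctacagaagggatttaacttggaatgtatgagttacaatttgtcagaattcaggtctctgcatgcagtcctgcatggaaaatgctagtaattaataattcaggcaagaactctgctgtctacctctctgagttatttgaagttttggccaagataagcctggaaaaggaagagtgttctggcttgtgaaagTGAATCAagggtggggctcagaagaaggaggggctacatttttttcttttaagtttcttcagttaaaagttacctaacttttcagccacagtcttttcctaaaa
Serpinb8: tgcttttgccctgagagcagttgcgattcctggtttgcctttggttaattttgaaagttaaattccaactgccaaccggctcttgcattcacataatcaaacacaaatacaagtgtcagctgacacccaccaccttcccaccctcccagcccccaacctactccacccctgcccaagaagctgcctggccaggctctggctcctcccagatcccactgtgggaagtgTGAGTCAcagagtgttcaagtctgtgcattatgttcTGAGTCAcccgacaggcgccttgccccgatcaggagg

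A promoter entry was found for 28 of the 34 members, some with more than 1. An AP-1 site was present in the promoters of 7 of the 9 chromosome 1 cluster genes that had an entry, and in those of 0 of the 19 other members. It was present in 7.81% of all 32851 promoters of that length. The 7 were the 5 shown, Serpinb11 and Serpinb12. Only Serpinb7 and Serpinb8 held the standard letters, with A or T in the middle of the sites of the rest. The share of promoters with the standard letters was not counted. Serpinb3a and Serpinb3b had an entry without an AP-1 site, although Serpinb3b was highest in the same N libraries as Serpinb2. In the promoters shown the site began 140 bases before the start of Serpinb5, 45 before Serpinb7, 94 before Serpinb2, 54 before Serpinb10 and 23 before Serpinb8, which held a further site 13 bases after its start. No AP-1 site overlapped a match to the other motifs searched. These were a TATA box (TATAAA), present in 8 of the 28 members and 13.6% of all promoters, a GAS element (TTCNNNGAA), present in 5 members and 8.30% of all promoters, and the oestrogen response element palindrome, present in 0 members and 0.0700% of all promoters. The motifs were chosen with the expression values known, and a match describes letters in a window, not binding.

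Per kilobase of exon, Serpinb5 was the most abundant member in 12 of the 18 libraries. It measured 753, 639 and 727 CPM in D542G N, 913, 756 and 1140.0 CPM in Y541S N and 1184, 1431 and 338 CPM in WT N. In ML it measured 238, 258 and 199 CPM in D542G, 282, 385 and 532 CPM in Y541S and 489, 480.0 and 234 CPM in WT. All 9 N libraries lay above the ML median, and the ranges overlapped only through WT N 3 and the higher Y541S ML and WT ML libraries. The gene was higher in N by 1.38 ± 0.24 (log2 fold change ± SE; adjusted p = 0.000946, edgeR quasi-likelihood test). Its fold was 1.61 ± 0.42 in D542G (adjusted p = 0.0295), 1.23 ± 0.42 in Y541S (adjusted p = 0.0979) and 1.29 ± 0.42 in WT (adjusted p = 0.102). With the sample number as a replicate block these became adjusted p = 0.00537, 0.0169 and 0.0369 in the same fits by edgeR. The D542G call was lost without any single D542G library (adjusted p up to 0.0926).

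Serpinb2, an inhibitor of the plasminogen activator urokinase, spanned the widest range of all members; it and Serpinb6c were singled out after their values were seen. It measured 0.267, 136 and 1.29 CPM in D542G N, 0, 0 and 1740.0 CPM in Y541S N and 2505, 4145 and 124 CPM in WT N. In ML it measured 0.810, 2.34 and 0 CPM in D542G, 0, 0 and 86.3 CPM in Y541S and 11.6, 6.20 and 0.692 CPM in WT. Per kilobase of exon it was the most abundant member in Y541S N 3, WT N 1 and WT N 2, and it was at or near 0 in 4 other N libraries. In D542G and in Y541S alike, 1 N library was high and the other two were low. Its fold of 6.10 ± 2.04 (log2, adjusted p = 0.0385, edgeR) rested on these libraries. Leaving out 1 library at a time gave folds of 0.24 to 10.5 and adjusted p up to 0.971, and leaving out Y541S N 3, WT N 1 and WT N 2 together gave -1.17 (adjusted p = 0.861), a fitted value with Y541S N at 0 throughout.

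Serpinb7 (megsin) and Serpinb10 (bomapin, in human known from blood cell precursors) were high in the same N libraries. Serpinb7 measured 0.0444, 7.65 and 0 CPM in D542G N, 0, 0 and 96.5 CPM in Y541S N and 115, 173 and 5.04 CPM in WT N. In ML it measured 0, 0.129 and 0.0207 CPM in D542G, 0, 0.0250 and 6.64 CPM in Y541S and 0.0240, 0.194 and 0 CPM in WT. The high N libraries of Serpinb7 were thus those of Serpinb2, and 3 of 9 N libraries were at 0. Its fold was 6.60 ± 1.83 (log2, adjusted p = 0.0157, edgeR), and the call was lost without D542G N 2 (adjusted p = 0.347) or Y541S N 3 (adjusted p = 1). Serpinb10 measured 0.378, 5.41 and 0.0235 CPM in D542G N, 0.668, 0.327 and 60.1 CPM in Y541S N and 34.0, 97.0 and 1.46 CPM in WT N, against 0 to 1.47 CPM in ML with 5 of 9 libraries at 0. All 9 N libraries lay above the ML median, and the fold was 6.58 ± 1.55 (log2, adjusted p = 0.00645, edgeR). Exons of Serpinb10, annotated as a polymorphic pseudogene, overlap those of Serpinb2, and 10.4% of the 50-base windows of Serpinb2 occur in other genes, so reads of both genes cannot be fully told apart.

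Serpinb8, whose human counterpart inhibits furin, was detected in all libraries. It measured 39.3, 43.7 and 32.6 CPM in D542G N, 15.7, 9.13 and 93.1 CPM in Y541S N and 149.6, 189.7 and 14.6 CPM in WT N. In ML it measured 4.33, 6.64 and 2.67 CPM in D542G, 5.71, 7.18 and 20.5 CPM in Y541S and 30.6, 19.4 and 4.23 CPM in WT. The highest libraries of each gate were again those with high epidermal sums, which also had the highest basal sums of their gate. The 3 D542G N libraries still lay above all 3 D542G ML libraries whatever their epidermal sum. The fold was 2.54 ± 0.57 (log2, adjusted p = 0.00456, edgeR), and without Y541S N 3, WT N 1 and WT N 2 it was 0.99 (adjusted p = 0.136). The other 5 kept genes of the cluster did not pass the test. Serpinb12 reached 102 CPM in Y541S N 3 and 17.1 CPM in Y541S ML 3, and stayed at 6.85 CPM or less elsewhere. Serpinb3b, a relative of the human squamous cell carcinoma antigens, measured 9.94 CPM in Y541S N 3, 11.5 CPM in WT N 1 and 20.7 CPM in WT N 2, and 0.0667 to 3.64 CPM in the other libraries; its fold of 2.20 ± 0.93 had an adjusted p of 0.0913, and of 0.00634 with the replicate block (edgeR). The part that epidermal or basal transcripts have in these values was not tested.

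**Figure D3:**
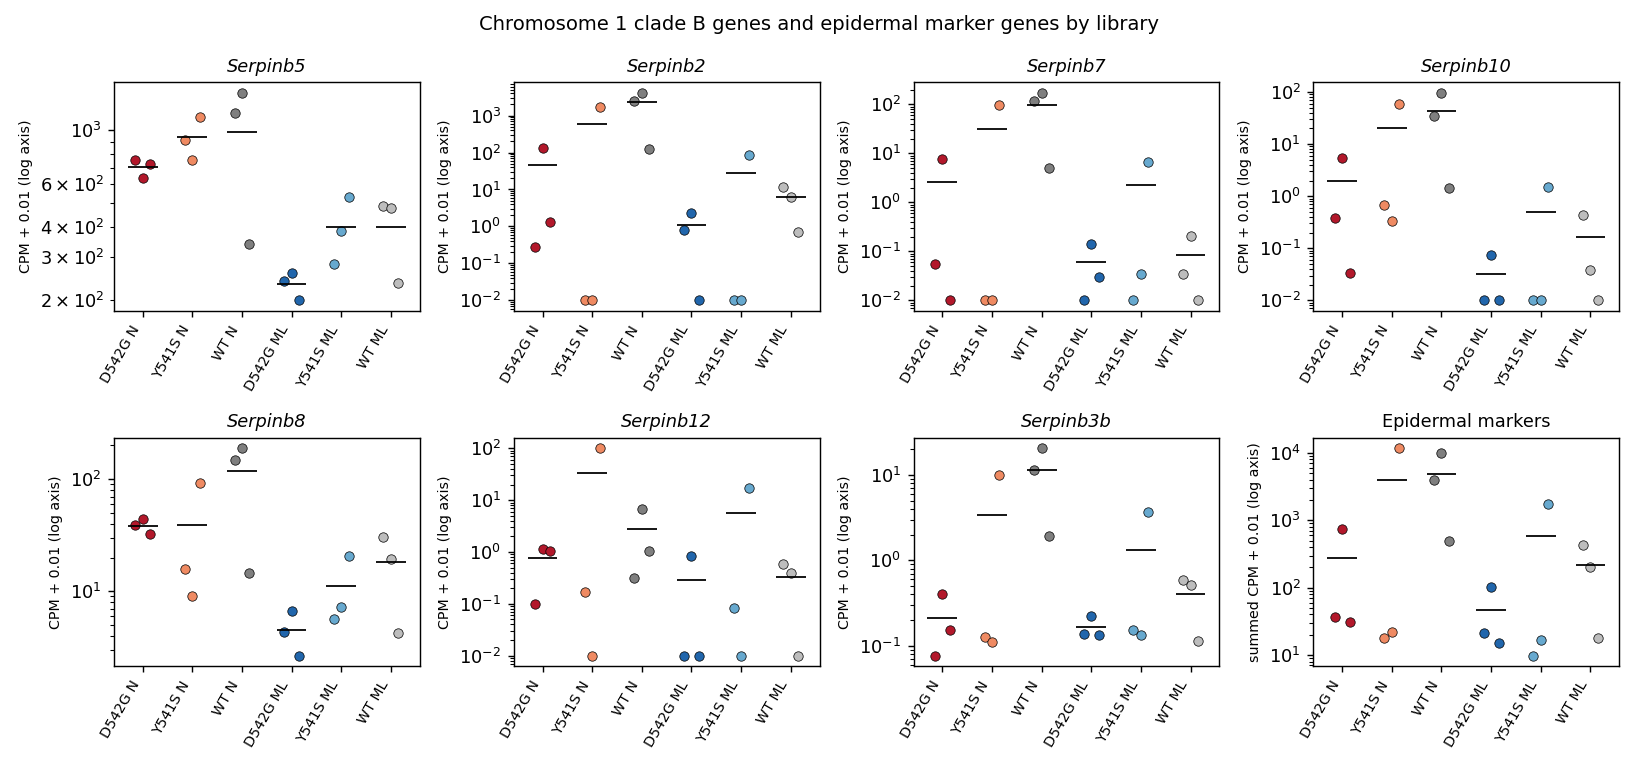
CPM + 0.01 on log axes for 7 clade B genes of chromosome 1 and, in the last panel, the summed CPM of 13 epidermal marker genes; points are the 3 libraries of a group from left to right by sample number and bars are means, with N groups left of ML groups. Serpinb2, Serpinb7, Serpinb10 and Serpinb3b share their highest libraries, Y541S N 3, WT N 1 and WT N 2, with the marker sum. These libraries also had the highest basal sums, and Serpinb5 is at 199 CPM or more in every library.

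In the chromosome 13 cluster, 3 of the 4 called genes were detected in every library. Serpinb6a, whose human counterpart inhibits cathepsin G, measured 76.2, 101 and 78.2 CPM in D542G N, 158, 166 and 160.1 CPM in Y541S N and 156, 161 and 76.4 CPM in WT N. In ML it measured 65.4, 60.3 and 62.7 CPM in D542G, 63.3, 90.8 and 80.8 CPM in Y541S and 100.3, 95.3 and 72.1 CPM in WT. All 9 N libraries lay above the ML median, with Y541S N, WT N 1 and WT N 2 above all other libraries. The fold was the smallest among the 19, 0.68 ± 0.14 (log2, adjusted p = 0.00260, edgeR), and was 1.04 ± 0.24 in Y541S (adjusted p = 0.0181). Windows of 50 bases shared with other genes made up 25.1% of this gene, and those shared with Nqo2 12.5%.

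Serpinb6b, a close relative of Serpinb6a, had its highest N levels in Y541S and its lowest in WT, without passing a test between genotypes in N. It measured 21.6, 25.0 and 22.1 CPM in D542G N, 92.5, 80.3 and 45.0 CPM in Y541S N and 2.42, 3.75 and 12.2 CPM in WT N. In ML it measured 3.19, 2.69 and 1.53 CPM in D542G, 3.00, 8.30 and 2.48 CPM in Y541S and 0.216, 7.28 and 2.90 CPM in WT. The 3 Y541S N libraries lay above all others, the 3 D542G N libraries came next, and WT N overlapped the ML libraries. Over the 3 genotypes the fold was 2.67 ± 0.51 (log2, adjusted p = 0.00156, edgeR). It was 3.21 ± 0.90 in D542G (adjusted p = 0.0378), 3.98 ± 0.93 in Y541S (adjusted p = 0.0185) and 0.82 ± 0.83 in WT (adjusted p = 0.607). Between genotypes in N the gene did not pass: Y541S N was 3.57 ± 0.91 above WT N on the log2 scale (adjusted p = 0.0787, edgeR), with adjusted p = 0.0349 without WT N 3.

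Serpinb9, the inhibitor of granzyme B that shields cells from cytotoxic granules, was also lowest in WT among the N libraries. Between genotypes in N it passed the edgeR test only for Y541S against WT. It measured 108, 115 and 130.0 CPM in D542G N, 242, 144 and 98.4 CPM in Y541S N and 19.6, 17.0 and 60.2 CPM in WT N. In ML it measured 62.5, 57.1 and 22.6 CPM in D542G, 47.6, 43.6 and 36.2 CPM in Y541S and 30.1, 41.8 and 63.3 CPM in WT. Every N library of the mutants lay above every WT N and ML library, and WT N 1 and WT N 2 were the lowest libraries of all. Over the 3 genotypes N was higher by 0.92 ± 0.28 (log2, adjusted p = 0.0243, edgeR), a call lost without Y541S N 1 (adjusted p = 0.0539). The gate fold was 1.31 ± 0.49 in D542G (adjusted p = 0.105, and 0.0402 with the replicate block), 1.93 ± 0.49 in Y541S (adjusted p = 0.0310) and -0.48 ± 0.48 in WT (adjusted p = 0.598). The difference between these folds did not pass the test in either mutant against WT by edgeR, and passed in both by limma with quality weights.

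The remaining genes of the cluster were low. Serpinb6c, another Serpinb6 relative, reached at most 2.28 CPM (WT N 2) and its fold of 3.36 ± 1.07 (log2, adjusted p = 0.0306, edgeR) was lost with the replicate block (adjusted p = 0.0808) and in 10 of the fits without 1 library (adjusted p up to 0.129). Serpinb1a, a relative of the human inhibitor of neutrophil elastase, measured 0.711 to 23.6 CPM in N and 0.989 to 6.38 CPM in ML and did not pass. Serpinb9f lay between 0.141 and 0.380 CPM in all libraries, and 78.7% of its windows occur in other genes, so its counts may be shared with its copies.

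Clade A transcripts were low in ML and variable in N. The most abundant was Serpina3g, which in mouse inhibits lysosomal cathepsins. It measured 12.0, 42.2 and 39.1 CPM in D542G N, 3.71, 3.14 and 32.2 CPM in Y541S N and 115, 98.8 and 14.2 CPM in WT N. In ML it measured 0.380, 1.66 and 1.47 CPM in D542G, 0, 9.95 and 3.84 CPM in Y541S and 6.23, 2.30 and 0 CPM in WT. All 9 N libraries lay above the ML median, and Y541S N 1 and Y541S N 2 lay within the ML range. The fold was 3.65 ± 0.95 (log2, adjusted p = 0.0113, edgeR).

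Its neighbours on chromosome 12 followed a like order. Serpina3h, annotated as a transcribed pseudogene, measured 9.07, 22.0 and 22.5 CPM in D542G N, 1.27, 0.327 and 26.4 CPM in Y541S N and 71.7, 80.0 and 3.97 CPM in WT N, against 0 to 2.45 CPM in ML. Serpina3i measured 3.98, 9.06 and 9.29 CPM in D542G N, 1.54, 0.981 and 5.69 CPM in Y541S N and 18.0, 21.3 and 0 CPM in WT N, against 0 to 1.75 CPM in ML. Both were highest in WT N 1 and WT N 2, with folds of 4.99 ± 1.16 (adjusted p = 0.00596) and 4.55 ± 1.19 (adjusted p = 0.0116, log2, edgeR). Windows of 50 bases that also occur in other genes made up 15.5% of Serpina3g, 21.9% of Serpina3h and 15.9% of Serpina3i, so counts of the trio may be split among them. Without Y541S N 3, WT N 1 and WT N 2 the fold of Serpina3h was 2.58 (adjusted p = 0.121, edgeR).

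Serpina3n, a mouse inhibitor of granzyme B and neutrophil proteases, and Serpina9, in human a product of germinal centre B cells, showed another order. Serpina3n measured 1.96, 2.02 and 7.46 CPM in D542G N, 1.36, 5.68 and 0.982 CPM in Y541S N and 3.35, 1.84 and 0 CPM in WT N, against 0 to 0.850 CPM in ML. Its fold was 4.03 ± 1.09 (log2, adjusted p = 0.0137, edgeR), with 1 N library and 4 ML libraries at 0. Serpina9 measured 27.1, 22.5 and 28.9 CPM in D542G N, 3.45, 6.04 and 0.982 CPM in Y541S N and 12.2, 1.94 and 0 CPM in WT N, against 0, 0 and 0.331 CPM in D542G ML and 0 to 1.20 CPM in the other ML libraries. The 3 D542G N libraries lay above all others. Its fold was 4.71 ± 1.14 over the 3 genotypes (log2, adjusted p = 0.00737, edgeR) and 7.82 ± 2.27 in D542G (adjusted p = 0.0441). The D542G value was fitted against 2 libraries at 0, and its call was lost in 9 of the fits without 1 library (adjusted p up to 0.146). The sum of 6 B and plasma cell genes was 403 to 843 CPM in D542G N, 282 to 708 CPM in Y541S N and 463 to 568 CPM in WT N. In ML it was 361 to 2044 CPM. The part of B cells in Serpina9 was not tested. The other 5 kept clade A genes, Serpina12, Serpina1e, Serpina3b, Serpina3f and Serpina3j, did not pass the test; Serpina3j reached 27.9 CPM in WT N 1.

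**Figure D4:**
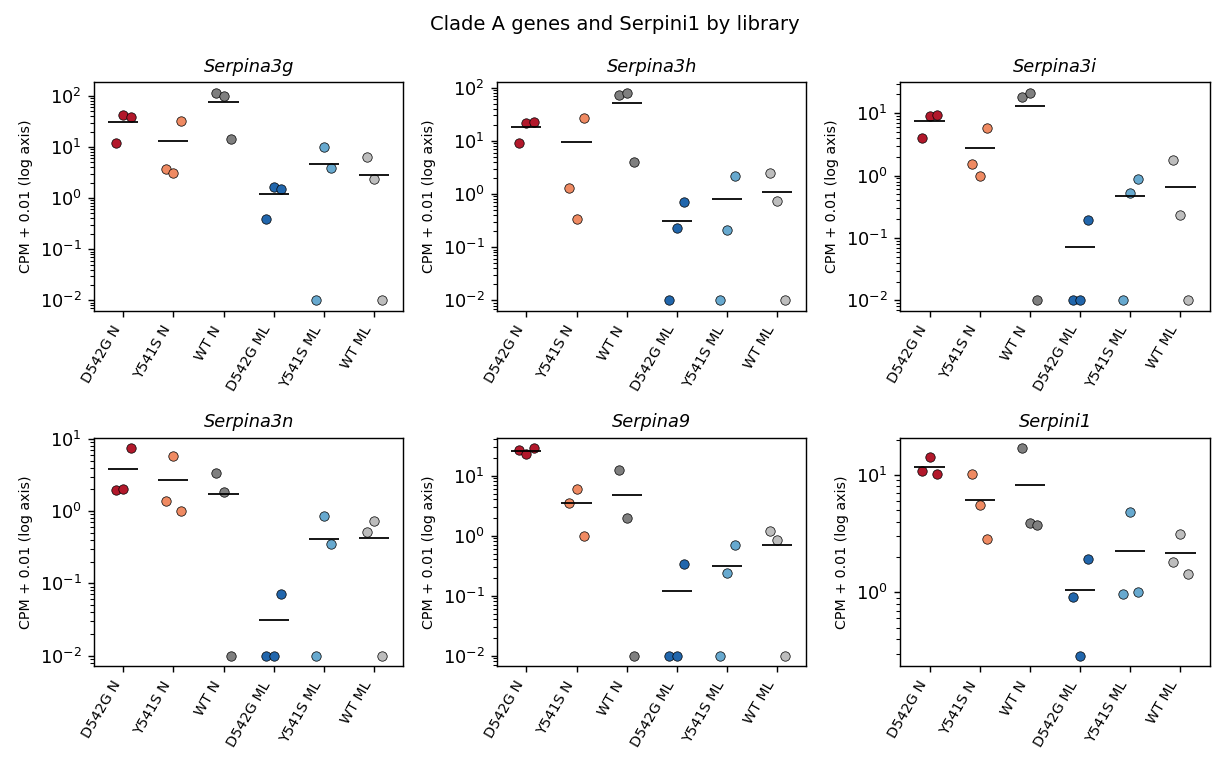
CPM + 0.01 on log axes for the 5 called clade A genes and for Serpini1; points are the 3 libraries of a group from left to right by sample number and bars are means, with N groups left of ML groups. Serpina3g, Serpina3h and Serpina3i are highest in WT N 1 and WT N 2, and Serpina9 is highest in the 3 D542G N libraries; points at 0.01 stand for 0 CPM.

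Serpinf1 made the clearest difference between genotypes. It codes for pigment epithelium-derived factor, a secreted protein that restrains blood vessel growth. It measured 10.1, 9.49 and 9.15 CPM in D542G N, 338, 196 and 138 CPM in Y541S N and 11.2, 5.12 and 5.36 CPM in WT N. In ML it measured 4.08, 6.08 and 5.85 CPM in D542G, 2.07, 7.95 and 8.81 CPM in Y541S and 1.83, 1.99 and 2.36 CPM in WT. The 3 Y541S N libraries stood far above the other 15, which lay between 1.83 and 11.2 CPM. Y541S N exceeded WT N by 4.95 ± 0.53 (log2, adjusted p = 0.00125, edgeR), with adjusted p at most 0.0157 when any 1 library was left out and 0.00636 with a block for the sample number. D542G N differed from Y541S N by -4.55 ± 0.52 (adjusted p = 0.000855, edgeR).

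Within genotypes, Serpinf1 was 5.16 ± 0.53 higher in N than in ML in Y541S (log2, adjusted p = 9.71e-05, edgeR), 1.81 ± 0.47 higher in WT (adjusted p = 0.0470) and 0.84 ± 0.45 in D542G (adjusted p = 0.270). The WT call was lost with the replicate block (adjusted p = 0.122). Over the 3 genotypes the fold was 2.60 ± 0.28 (adjusted p = 1.62e-05). The gate fold in D542G differed from that in Y541S by -4.32 ± 0.66 (adjusted p = 0.0210, edgeR), a call lost with the replicate block (adjusted p = 0.186) and without some single libraries (adjusted p up to 0.0761).

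Serping1, the inhibitor of complement C1 proteases and of plasma kallikrein, was also highest in Y541S N. It measured 17.2, 21.7 and 32.3 CPM in D542G N, 143, 157 and 90.4 CPM in Y541S N and 59.1, 29.5 and 44.9 CPM in WT N. In ML it measured 11.8, 10.8 and 27.1 CPM in D542G, 7.25, 24.5 and 24.3 CPM in Y541S and 15.2, 13.6 and 20.3 CPM in WT. The Y541S N libraries lay above all others, WT N lay above all ML libraries, and D542G N overlapped ML. N was higher by 1.59 ± 0.27 over the 3 genotypes (log2, adjusted p = 0.000690, edgeR) and by 2.80 ± 0.49 in Y541S (adjusted p = 0.00337). D542G N differed from Y541S N by -2.45 ± 0.48 (adjusted p = 0.0195), a call lost in some fits without 1 library (adjusted p up to 0.130).

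Serpinh1, the chaperone that folds procollagen in the endoplasmic reticulum, had the second highest median level per kilobase. It measured 239.9, 152 and 216 CPM in D542G N, 889.9, 729 and 398 CPM in Y541S N and 495, 229 and 122 CPM in WT N. In ML it measured 99.2, 81.5 and 260.4 CPM in D542G, 141, 330.3 and 161 CPM in Y541S and 90.0, 114 and 88.7 CPM in WT. All 9 N libraries lay above the ML median, while D542G ML 3 and the 3 Y541S ML libraries lay within the N range. The fold was 1.22 ± 0.30 (log2, adjusted p = 0.00841, edgeR), and D542G N against Y541S N, at -1.73 ± 0.53, did not pass (adjusted p = 0.132). The sum of 6 pericyte marker genes was 104 to 109 CPM in D542G N, 303 to 429 CPM in Y541S N and 114 to 141 CPM in WT N. In ML it was 60.7 to 121 CPM. Its member Mcam measured 328, 248 and 146 CPM in Y541S N and from 30.0 up to 68.3 CPM in the D542G and WT libraries of the N gate. Mcam alone made up 76%, 67% and 48% of the sum in Y541S N. It made up 61% to 63% in D542G N and 21%, 22% and 47% in WT N. No member of the list was at 0. In N over the 3 genotypes, 2 of its 6 genes were called higher and 1 lower (13.8% and 13.6% of all genes). Between Y541S N and WT N, 1 of the 6 was called higher and 0 lower (1.14% of all genes in either direction). The sum of 7 fibroblast genes was 309 to 418 CPM in D542G N, 194 to 248 CPM in Y541S N and 52.0 to 138 CPM in WT N. The sum of 7 endothelial genes, none at 0, was 106 to 165 CPM in D542G N, 223 to 590.2 CPM in Y541S N and 118 to 182 CPM in WT N, against 97.4 to 215 CPM in ML. Of the 10 basal and myoepithelial genes, 2 were called higher in Y541S N than in WT N (median log2 fold 2.15). In D542G N, 3 were called lower than in Y541S N (median -3.03). Of all genes, 1.14% and 1.43% were called in either direction in these comparisons. Of the 10, Acta2, smooth muscle actin, measured 214, 318 and 221 CPM in D542G N, 4640.0, 2438 and 2674 CPM in Y541S N and 104, 181 and 582 CPM in WT N. Summed, the 10 measured 15020 to 16900 CPM in D542G N, 24140 to 38650 CPM in Y541S N and 6578 to 40240 CPM in WT N. By this sum WT N 1 and WT N 2, at 32040 and 40240 CPM, lay within or above the Y541S N range, unlike for Acta2. The part of these cell types in Serpinf1, Serping1 and Serpinh1 was not tested.

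**Figure D5:**
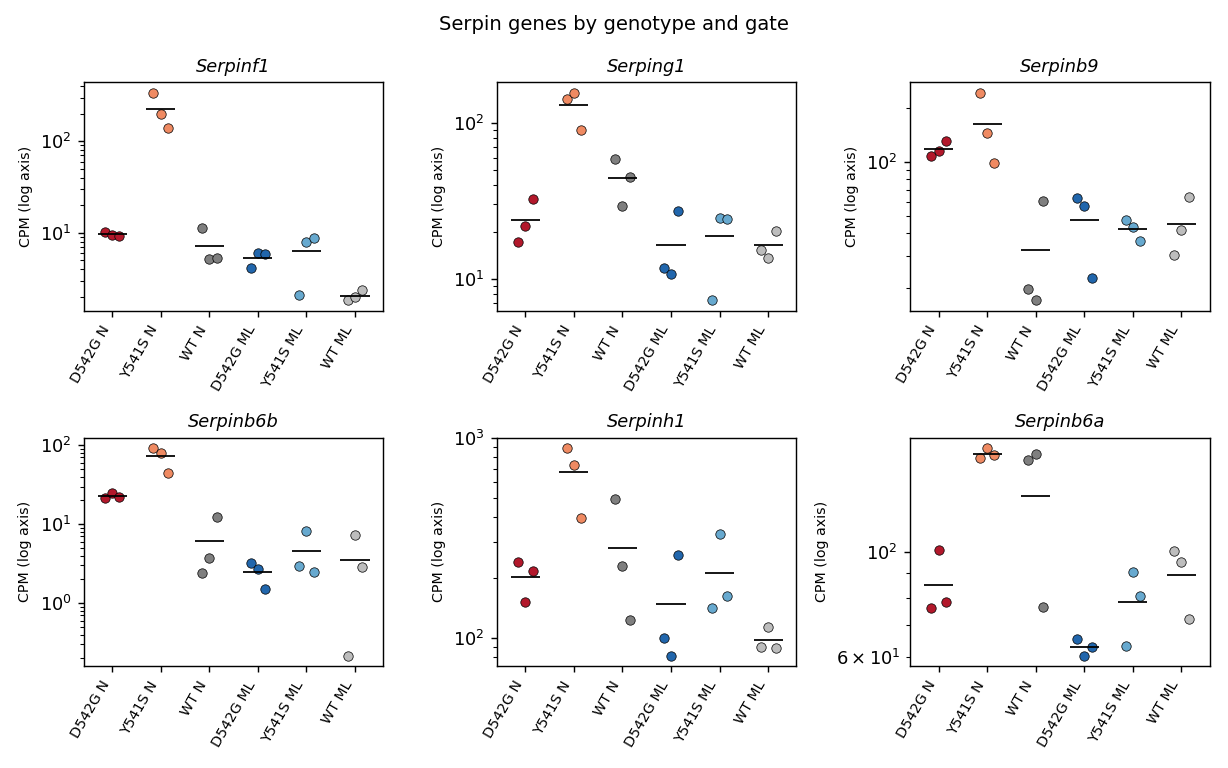
CPM on log axes for 6 members; points are the 3 libraries of a group from left to right by sample number and bars are means, with N groups left of ML groups. Serpinf1, Serping1 and Serpinb6b are highest in Y541S N, Serpinb9 is at 98.4 CPM or more in the N libraries of both mutants, and all 6 panels show some overlap between N and ML.

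Clades I, E and C completed the set. Serpini1 (neuroserpin, an inhibitor of tissue plasminogen activator) measured 10.8, 14.3 and 10.2 CPM in D542G N, 10.1, 5.51 and 2.84 CPM in Y541S N and 17.0, 3.88 and 3.73 CPM in WT N, against 0.280 to 4.78 CPM in ML. Its fold was 2.30 ± 0.48 over the 3 genotypes (log2, adjusted p = 0.00301, edgeR) and 3.51 ± 0.88 in D542G (adjusted p = 0.0228).

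Serpine2, an inhibitor of thrombin and plasminogen activators, had the lowest fold among the 30 members with no group at 0 throughout, and did not pass the test. It measured 23.8, 13.4 and 18.6 CPM in D542G N, 53.3, 17.2 and 28.4 CPM in Y541S N and 11.7, 7.73 and 6.66 CPM in WT N. In ML it measured 13.5, 11.2 and 219 CPM in D542G, 30.5, 18.4 and 36.4 CPM in Y541S and 31.0, 71.0 and 9.16 CPM in WT. The 219 CPM of D542G ML 3 stood apart, and 8 of 9 N libraries lay below the ML median. Its fold was -1.33 ± 0.53 (log2, adjusted p = 0.0771, edgeR; adjusted p = 0.0279 by DESeq2). Serpinc1 (antithrombin), made mainly in liver, lay at or below 1.25 CPM throughout.

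Single genotypes gave fewer calls. N against ML called 4 members in D542G (9.20% of all genes called in either direction), 5 in Y541S (6.95%) and 1 in WT (3.53%), all higher in N. At an unadjusted p under 0.05, 13 were higher and 1 lower in D542G, 10 and 0 in Y541S, and 17 and 1 in WT. The calls at adjusted p were Serpinb5, Serpinb6b, Serpini1 and Serpina9 in D542G. They were Serpinf1, Serping1, Serpinb6a, Serpinb6b and Serpinb9 in Y541S, and Serpinf1 in WT. With the replicate block 12 were called in D542G (10.7% of all genes), 8 in Y541S (8.68%) and 7 in WT (4.92%), and Serpinf1 was not among those in WT. Without WT N 3 the counts were 8 (14.2%), 8 (11.4%) and 6 (16.6%). A difference between these counts is not a difference between genotypes, which was tested directly.

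Between genotypes within N, D542G against WT called 0 members by edgeR (2.43% of all genes), with 7 at an unadjusted p under 0.05. Y541S against WT called 2, both higher (1.14%), and D542G against Y541S called 2, both lower (1.43%). The Y541S calls against WT were Serpinf1 and Serpinb9. Serpinb9 was 2.32 ± 0.50 higher in Y541S N (log2, adjusted p = 0.0393, edgeR), and adjusted p was 0.0767 with a block for the sample number and up to 0.162 without 1 library. D542G N was 1.87 ± 0.49 above WT N for the same gene (adjusted p = 0.0613, edgeR), and DESeq2 called 2 members (9.82% of all genes) and limma with quality weights 16 (22.4%) in this comparison. Both comparisons share the WT N libraries, among them WT N 3. Within ML, D542G against WT and Y541S against WT called 0 members by edgeR, DESeq2 and limma and 0% of all genes by edgeR (up to 0.618% by DESeq2 and 0.508% by limma), with 2 members and 1 member at an unadjusted p under 0.05. The change of the gate fold called 0 members in D542G against WT (0.109% of all genes), 0 in Y541S against WT (0%) and 1, Serpinf1, in D542G against Y541S (0.109%) by edgeR. At an unadjusted p under 0.05 these counts were 2, 4 and 3, DESeq2 called 0, 2 and 2 (2.46%, 1.06% and 1.96% of all genes), and limma called 2, 2 and 1 (6.85%, 1.83% and 1.44%).

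Genes that act with the serpins were counted from 7 lists over the 3 genotypes, again beside 13.8% higher and 13.6% lower among all genes. Of 7 tested genes of plasminogen activation, the system that Serpinb2 and Serpini1 restrain, 4 were higher in N and 0 lower by edgeR, also at an unadjusted p under 0.05. Among them Plat, tissue plasminogen activator, averaged 66.7 ± 56.9 CPM in N and 16.7 ± 7.13 CPM in ML (SD, n = 9 each) with a fold of 1.66 ± 0.22 (log2, edgeR adjusted p = 9.50e-05), and the urokinase receptor Plaur had a fold of 0.64 ± 0.20 (adjusted p = 0.0307), a call lost in 8 of the fits without 1 library (adjusted p up to 0.0602). Urokinase itself, Plau, did not pass (0.60 ± 0.42, adjusted p = 0.315). Of 10 thrombin and protease-activated receptor genes, 5 were higher and 0 lower (6 and 0 at an unadjusted p under 0.05), led by the thrombin receptor F2r (2.53 ± 0.50, adjusted p = 0.00211), with Thbd, thrombomodulin, at 1.88 ± 0.46 (adjusted p = 0.00749). Of these 5, the calls of F2rl1 and Tfpi were lost in 5 and 12 of those fits, and that of Tfpi also with the replicate block (adjusted p = 0.0543).

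Of 19 collagens and collagen-modifying genes, the clients and partners of Serpinh1, 8 were higher and 0 lower (11 and 1 at an unadjusted p under 0.05), and all 8 calls held when any 1 library was left out. Crtap, part of the prolyl hydroxylase complex, had a fold of 1.27 ± 0.09 (adjusted p = 6.75e-07, edgeR), and Col17a1, the hemidesmosome collagen of basal cells, one of 5.88 ± 0.81 (adjusted p = 0.000137). Of 15 kallikrein and transmembrane protease genes, 1 was higher (Prss23, 2.47 ± 0.26, adjusted p = 1.49e-05) and 4 lower, among them Prss8 (-2.03 ± 0.29, adjusted p = 0.000181) and St14, matriptase (-1.31 ± 0.20, adjusted p = 0.000284). Of 13 cathepsins, 2 were higher, among them Ctsl (1.32 ± 0.15, adjusted p = 3.19e-05), and 4 lower, among them Ctse (-3.29 ± 0.66, adjusted p = 0.00241). Of 9 genes of leukocyte proteases and perforin, 4 were higher and 1 lower, perforin itself (Prf1). The 4 were Cma1, Tpsb2, Prtn3 and Mcpt4. Of these, Cma1, Tpsb2 and Mcpt4 are mast cell proteases, with N means of 4.08, 6.17 and 2.15 CPM. Of 18 inhibitors of other families, 3 were higher, among them Slpi (3.49 ± 0.51, adjusted p = 0.000239), and 5 lower, among them Spint1, the Kunitz inhibitor of matriptase (-1.56 ± 0.21, adjusted p = 0.000120), and Wfdc18 (-3.54 ± 0.52, adjusted p = 0.000238). In these last 4 lists the calls of Tmprss2, Ctsd, Ctsf, Prf1, Timp2, Wfdc2 and Reck were lost in 4 or more of the fits without 1 library.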

How the data were processed

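Cells were sorted by flow cytometry, RNA was extracted with RNeasy Micro Plus and libraries were made with Nextera XT, per the labels' protocols. The authors deposited a count per gene for each of 18 libraries. The build was GRCm38 per the submitters' processing notes, while aligner, counter, annotation and strand setting were not given in the sources used here. Symbols, coordinates and exon lengths came from GENCODE M21. Genes that lie inside another gene, Serpind1 in Pi4ka among them, were mostly at 0, so a 0 there says nothing of expression. Close paralogs share reads: the share of 50-base exon windows found in other genes is given beside the genes it touches.

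The tests used edgeR 4.0.16 under R 4.3.3 (filterByExpr at a minimum count of 10, which kept 18298 genes; TMM scaling, factors 0.850 to 1.10; quasi-likelihood test; 6 group means, 12 residual degrees of freedom; biological coefficient of variation 0.652). Levels are CPM on TMM-scaled totals; they compare genes only per kilobase of exon. Adjustment followed Benjamini and Hochberg across every gene a comparison tested, with a threshold of 0.05; p-values measure the spread between libraries. The comparisons were N against ML, over the 3 genotypes with equal weight and within each, genotypes within each gate, and the change of the gate fold. Alternatives were RLE size factors, DESeq2 1.42.0, limma 3.58.1 (voom with quality weights), no count filter, 10 counts in 3 libraries, the replicate block, leaving out each library, and 3 sets of libraries left out, which were chosen after the data were seen. The scripts were tested on simulated counts.

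Within a genotype, N and ML libraries of the same number deviated together in all 9 pairs (correlation 0.166 to 0.553; WT N 2 correlated more, at 0.192, with another WT ML library than with its own), so the numbers were taken to pair them; this comes from the data, as the labels do not say it. Named by rule were members called over the 3 genotypes with 1 sign in each genotype, or called between genotypes (at most 6 a clade, by p), the most abundant member of each clade, and up to 4 genes a list by p. Serpinb2, Serpinb6c, Serpinb12, Serpinb3b, Serpinb1a, Serpinb9f, Serpina3j and Plau, and list genes beyond the rule, were named after their values were seen. The members, lists and tests were chosen with earlier results of these data known. Promoters came from RefSeq. No protein sequence was used here. The counts of members include a gene whose own values are not reported here.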

Additional observations from a re-analysis of the deposited data

Results flagged for a closer look

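Serpinf1 changed between the gates by different amounts in the mutants: the N over ML fold (log2) in D542G was lower than that in Y541S by a difference of -4.32 ± 0.66 (edgeR quasi-likelihood interaction test, adjusted p = 0.0210), with 338, 196 and 138 CPM in Y541S N against 9.15 to 10.1 CPM in D542G N. The adjusted p was 0.186 with the replicate block and up to 0.0761 without 1 library. The direction was the same in each of these fits.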

How the results depend on the processing

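Of the 19 members called higher in N over the 3 genotypes, 15 were called in each fit that left out 1 library. That count was 17 to 21 in those fits, and the count called lower 0 to 1. The other counts with 1 library left out were 0 to 8 (N against ML in D542G), 2 to 8 (Y541S), 0 to 6 (WT), 0 to 2 (D542G against WT in N), 1 to 3 (Y541S against WT in N), 1 to 3 (D542G against Y541S in N), and 0 to 1 for the gate change in D542G against Y541S and in Y541S against WT. Shares of all genes moved as well. Among these fits they are given only for the one without WT N 3, so the ranges are not results about the members alone. Without WT N 3, N against ML called 14.2%, 11.4% and 16.6% of all genes in D542G, Y541S and WT. The comparisons in N called 7.69%, 2.92% and 2.79% in the order above. RLE size factors and the filter of 10 counts in 3 libraries moved no count. No count filter gave 3 members in D542G (4.72% of all genes) and 0 in WT (1.84%). DESeq2 gave 1 member lower over the 3 genotypes, 11, 8 and 11 for N against ML in D542G, Y541S and WT, 2, 4 and 4 for the comparisons in N in the order above, and 2 each for the gate change in Y541S against WT and in D542G against Y541S. Limma with quality weights gave 13, 8 and 17 within genotypes, 16, 7 and 5 in N, and 2 for the gate change in each mutant against WT. All genes moved too: N against ML in D542G, Y541S and WT called 18.6%, 14.0% and 11.8% of them by DESeq2 and 32.0%, 14.2% and 28.2% by limma, and the comparisons in N 9.82%, 5.98% and 6.67% by DESeq2 and 22.4%, 10.6% and 6.67% by limma. The replicate block gave 12, 8 and 7 within genotypes and 0 for the gate change in D542G against Y541S; a block for the number across genotypes, where same-numbered libraries did not deviate together, gave 1 for Y541S against WT in N.

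Sets of libraries left out were chosen after the data were seen. Without WT N 3 and Y541S N 3 the counts were 9 in D542G, 11 in WT, 3, 5 and 4 in N, and 1 and 4 for the gate change in D542G and in Y541S against WT. In the same order, 15.9%, 18.5%, 10.3%, 10.6%, 3.21%, 2.29% and 4.52% of all genes were called. Without WT N 3, WT ML 1, WT ML 2 and Y541S ML 3 the counts were 9 in D542G (14.7% of all genes) and 3 in WT (10.9%). They were 5 for D542G against WT in N (7.74%) and 0 for the gate change in D542G against Y541S (0.137%). Without Y541S N 3, WT N 1 and WT N 2, which left WT N 3 alone in its group, the fold of Serpinb2 was -1.17. The cause of these changes was not tested. With 3 libraries a group, and replicate spread far above counting noise, counts within single genotypes changed when 1 library was left out.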
